A study of Equus asinus with 3 samples.

Results

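The caput epididymidis is the first segment of the duct that carries sperm away from the testis. In the donkey caput library, 146 of the 9478 cell barcodes met a rule on germ-cell genes (1.54%, exact binomial 95% interval 1.30 to 1.81%). They are called germ-cell barcodes here by that rule alone. A testis profile fitted under 50% of the UMIs in 46 of them. A barcode was taken when CETN1, PPP3R2 and CLGN together gave it at least 4 UMIs and when TNP1, TNP2 and PRM2, the genes of late spermatid chromatin, made up less than 0.5% of its UMIs, where a UMI is a molecular identifier that counts 1 captured transcript. The series held 27699 barcodes from dissociated tissue of sexually mature male donkeys (Equus asinus): 8610 from testis, 9478 from caput and 9611 from corpus, the next segment of the duct. Each tissue gave 1 droplet library. The design text names 3 animals, the relation of animals to libraries is not stated, and no treatment or genotype is given. By its label the testis library is of germ cells, and caput and corpus are labelled somatic. With 1 library per tissue there was no replicate, so every interval below covers counting error alone and no test between tissues was possible.

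Spermatogenesis takes a germ cell from mitotic spermatogonia through the long meiotic prophase, in which homologous chromosomes synapse and recombine, and through both meiotic divisions to round spermatids, which grow an acrosome and a flagellum and then compact their chromatin. During meiotic prophase the X chromosome is silenced, and autosomal copies of several X-linked housekeeping genes are transcribed in its place. Germ cells normally leave the testis as spermatozoa, which carry little RNA. Of the genes of the rule, CETN1 is a testis centrin of the centriole and sperm neck, PPP3R2 is the testis form of the calcineurin regulatory subunit, and CLGN (calmegin) is a chaperone of the endoplasmic reticulum of meiotic and post-meiotic germ cells. TNP1, TNP2 and PRM2 encode transition proteins and a protamine.

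The 3 genes that chose the barcodes stood near their testis level. CETN1 was at 1536 CPM (UMIs of a gene per 1000000 UMIs of its group) in the 146 barcodes, at 27.0 in the other 9288 caput barcodes and at 1795 in the 8240 testis barcodes that met the same rule. PPP3R2 was at 1941, 32.4 and 2120 CPM in the same order, and CLGN at 4172, 102.6 and 4982. These levels set the choice and are given as a description. CLGN had a UMI in 145 of the 146 barcodes, PPP3R2 in 117 and CETN1 in 113. Among the other caput barcodes 11.3% had a UMI of CLGN, 4.04% of PPP3R2 and 3.37% of CETN1, never more than 3 in a barcode, at a median depth of 1140 UMIs against 2149 in the 146. The testis rule left out few cells: 95.7% of testis barcodes met it, so that the testis counterparts were nearly the whole testis library. No corpus barcode met it, but the median corpus barcode had 371 UMIs, too few for the threshold of 4 to bound the share of such cells there.

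The threshold lay within a continuous range. Exactly 4 UMIs of the 3 genes were found in 18 of the 146 barcodes, the median was 12 and the highest value 189. Below the threshold, 68 caput barcodes had 3 UMIs, 276 had 2, 1270 had 1 and 7674 had 0. The limit on late genes removed 2 barcodes with at least 4 UMIs, at 0.527% and 8.70% of their UMIs, and the highest share among the 146 was 0.351%. These 2 were among 44 caput barcodes at or above that limit, which were kept out of every comparison. Total depth ran from 873 UMIs, the lowest of the 146, over a median of 2149 to 20029, and the 146 held 621274 UMIs, 4.71% of the library. The testis counterparts had a median of 4787.

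**Figure D1:**
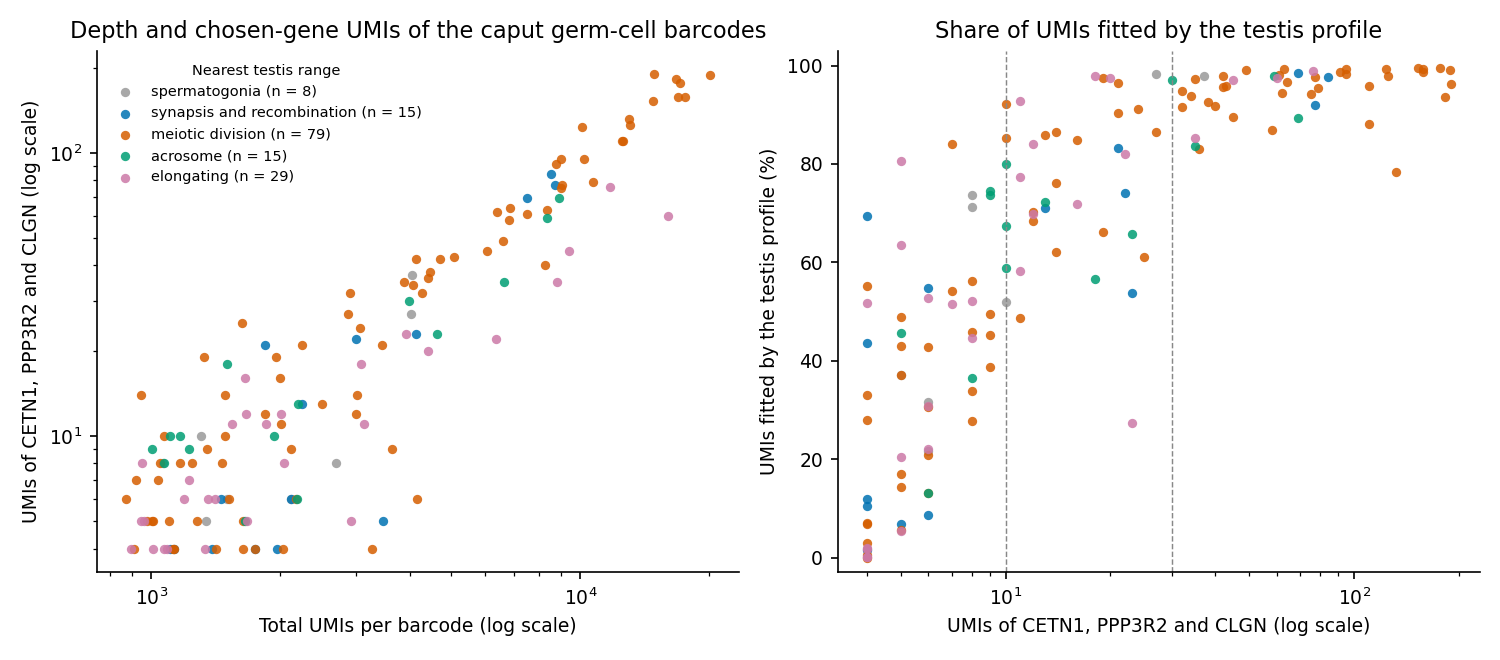
Left, total UMIs (x, log scale) against UMIs of CETN1, PPP3R2 and CLGN (y, log scale) for each of the 146 barcodes, coloured by the testis range whose profile fitted it best. Right, the percentage of a barcode's UMIs fitted by that testis profile (y) against its UMIs of the 3 genes (x, log scale), with dashed lines at 10 and 30 UMIs; barcodes with 30 or more had a median of 97.0%, those with 4 to 9 a median of 33.5%.

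The barcodes ranged from nearly pure testis profiles to profiles mostly like the surrounding caput. For each barcode the UMIs were fitted as a mixture of a testis profile and the profile of the other caput barcodes, with the 6 genes of the rule left out. The testis part took a median of 73.0% of the UMIs (interquartile range 42.8 to 94.3%). It exceeded 90% in 48 barcodes, was under 50% in 46 and under 10% in 14. Of the 47 barcodes with 30 or more UMIs of the 3 genes, at a median depth of 8739 UMIs, 39 exceeded 90% and the median was 97.0%. Of the 60 barcodes with 4 to 9 such UMIs, at a median depth of 1336 UMIs, 44 were under 50% and none exceeded 90%. The 39 between them had a median of 76.2%. Depth, UMIs of the chosen genes and the testis part rose together, and the sums reported below weight a barcode by its depth.

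Secreted products of the caput epithelium marked the shallow barcodes. The caput luminal list (27 genes, among them the beta-defensins DEFB119 and DEFB113, the sperm-binding protein BSPH1 and the chaperone CLU) had a median share of 1.48% in the barcodes with 4 to 9 UMIs of the 3 genes, 0.289% in those with 10 to 29, and 0.124% in those with 30 or more, against 1.04% in the other caput barcodes. In UMIs the medians were 18.5, 6 and 9, against 13 in the other caput barcodes. The deep barcodes thus carried somewhat fewer luminal UMIs than an ordinary caput barcode, in a far larger total. Doublet scoring marked 163 caput barcodes (1.72%), 7 of them among the 146. The parts of free RNA and of paired cells in the luminal UMIs were not tested.

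Placed along the testis, more of the barcodes lay nearest to the meiotic division range than to any other. Testis barcodes were split into 5 ranges by the gene list with the highest share relative to the library mean, and the ranges are cuts of a score, not cell types. The meiotic division range was nearest for 79 of the 146 (54.1%, 45.7 to 62.4%) and held 28.9% of testis barcodes. The elongating range was nearest for 29, the synapsis and recombination range for 15, the acrosome range for 15 and the spermatogonia-list range for 8. Some placements were weak. The log-likelihood led that of the next range by under 3 in 7 of the 79 and 5 of the 29. The same held for 7 of the 15 synapsis, 3 of the 15 acrosome and 2 of the 8 spermatogonia-list placements. Every barcode was placed, also the 14 with a testis part under 10%. Of the 47 deep barcodes, 35 lay nearest to the division range. The spermatogonia-list range rested on a median of 1 list UMI per testis barcode. Its level of HMGB4, a spermatid gene, was 1073 CPM, so its name describes the list and not the cells. The barcodes nearest the division range were also the deepest, with a median of 3012 UMIs against 1661 to 2119 for the other ranges, and in testis the ranges had medians of 4134 to 5036. Without a caput profile in the fit, 32.9% lay nearest to the division range, and with a threshold of 3 UMIs for the chosen genes 48.6% did.

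Across 2983 genes the summed profile of the 146 correlated with that of the testis division range at r = 0.856, with the synapsis range at 0.842, with all testis counterparts at 0.792, with the elongating range at 0.577 and with the other caput barcodes at 0.327. These are Pearson correlations of log2 CPM across genes, which are not independent replicates, and they describe the sums. Only genes that passed a minimum of 80 CPM entered, so the values do not cover the whole profile.

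Set beside the other caput barcodes, the 146 were higher in genes of meiosis and of early spermatid formation and lower in genes of the duct wall and its immune cells. A gene is called higher or lower below when the whole interval of the ratio lay beyond 2-fold and the higher side held at least 50 UMIs. By that rule 1625 of 20481 genes tested were higher in the 146 (7.93%) and 3821 were lower (18.7%). The barcodes were chosen on genes of the same cells, so these counts are a description. At 50 UMIs a gene stood at 80.5 CPM in the 146 and far lower in the other caput barcodes, so that lower calls reached rarer genes than higher calls did. With the same floor of CPM on both sides, 1625 genes were higher and 1422 lower. Scaling by the median ratio of genes with at least 50 UMIs in both groups moved every log2 ratio by 1.78 and left 592 higher and 14050 lower; over genes with a mean of at least 50 CPM the shift was 0.10, with 1571 higher and 4343 lower.

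The genes farthest above the other caput barcodes were testis genes without a direct part in the rule. POU5F2, a POU-domain transcription factor of male germ cells, was at 91.7 CPM against 1.12, a ratio of 81.9 (45.1 to 159). RBMXL2, the autosomal copy of the RNA-binding protein gene RBMX, was at 159 against 2.48, a ratio of 64.3 (42.5 to 99.6). The other 6 were C9H5orf58, DKKL1, TSACC, CATSPERZ, COX8C and TMEM225. Of these, DKKL1, an acrosomal protein gene, was the most abundant, at 2688 CPM against 48.8, and was detected in 116 of the 146. CATSPERZ, a subunit of the sperm calcium channel, was at 834 against 17.0, and COX8C, the testis form of a cytochrome oxidase subunit, at 155 against 2.40.

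Genes of the synaptonemal complex, the protein ladder between paired homologues, were among the higher ones. Of 33 tested genes of the synapsis and recombination list, 8 were higher and 3 lower. SYCE2, a central element protein, was at 961 CPM against 25.5 in the other caput barcodes, and SYCE3 at 369 against 19.8. SYCP2, of the lateral elements, was at 602 against 40.2, and SYCP1, of the transverse filaments, at 357 against 76.2, a ratio of 4.69 (4.03 to 5.43). SYCE1, the meiotic cohesin SMC1B, MEIOC and TEX15 were the other higher genes, and TEX11, MEI4 and M1AP were lower. TEX11, which is X-linked, was at 17.7 in the 146 and 75.03 in the other caput barcodes. Since somatic caput barcodes also gave UMIs of this list, detection alone separated the groups little: after thinning every barcode to 800 UMIs, 88.4% of the 146 (82.0 to 93.1%), 52.6% of the other caput barcodes and 96.2% of the testis counterparts had at least 1 UMI of it.

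The piRNA pathway, which silences transposons in germ cells, showed 11 of 20 tested genes higher and none lower. TDRD6, a tudor protein of the chromatoid body, was at 759.7 CPM against 23.1, and MAEL at 439 against 18.2. The helicase gene DDX4 (vasa) was at 336 against 45.8, a ratio of 7.34 (6.23 to 8.61). PIWIL1, TDRD1, TDRD12, HENMT1, PNLDC1, GTSF1, FKBP6 and TDRD7 were the others.

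Genes of the meiotic divisions were higher as well. Of 24 tested, 14 were higher and none lower, among them CCNA1, CCNB1, CCNB2, CDK1, PLK1, BUB1, CDC20, PTTG1, TTK and HSPA2. NEK2, a centrosomal kinase, was at 942 CPM against 23.4, a ratio of 40.3 (35.0 to 46.6). AURKA, the spindle pole kinase, was at 674 against 19.4, and CKS2, a partner of the cyclin-dependent kinases, at 467 against 15.4. SPDYA, an activator of those kinases at meiotic telomeres, was at 565 against 29.5. At 800 UMIs per barcode the list was detected in 89.0% of the 146 (82.8 to 93.6%), 27.0% of the other caput barcodes and 98.1% of the testis counterparts.

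Acrosome and flagellum genes, which are transcribed from meiosis onward, followed. Of the acrosome list, 14 of 18 tested genes were higher, including the proacrosin gene ACR, its binding protein ACRBP at 818 CPM against 17.7, DPY19L2 at 771 against 68.2, and the equatorial segment gene SPESP1 at 721 against 26.6. Of the flagellum list, 33 of 45 were higher. SPA17, a fibrous sheath protein of the kinase-anchoring family, reached 4640.5 CPM against 132 and was detected in 126 of the 146. CABYR stood at 1539 against 50.4, ROPN1L at 1072 against 26.3 and the outer dense fibre gene ODF2 at 1178 against 80.1. No gene of either list was lower.

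Other germ-cell lists moved in part. Of the sperm calcium list, 11 of 20 tested genes were higher, with CALM3 at 3494 CPM against 108. Of the glycolysis list, 5 of 18 were higher (PGK2, PGAM2, LDHA, AK1 and AK7) and 6 were lower (TPI1, GPI, PGAM1, PKM, LDHB and PGK1). Of the elongating list, 3 of 18 were higher, ODF1 not under the median-ratio scaling that moved every ratio by 1.78: HMGB4 at 293 against 18.4, ODF1 at 82.1 against 27.5, and AKAP4 at 126 against 27.1. In the 44 caput barcodes left out for late chromatin genes the same 3 stood far higher, at 4491, 1647 and 1884 CPM. Of 6 histone genes tested, H3-3B, H2AZ1 and H2AX were higher, H3-3B not under that scaling.

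Genes of the surrounding tissue were lower in the 146, beside some germ-line genes. Of the 26 luminal genes tested 25 were lower, as were 12 of 14 macrophage genes, 10 of 15 T and NK cell genes, 9 of 12 fibroblast genes and 5 of 8 clear and narrow cell genes. Of 12 tested genes of the spermatogonia list 5 were lower as well (UCHL1, KIT, DMRT1, ZBTB16 and ELAVL2) and none higher. Of 28 immediate-early and stress genes, 17 were lower, including FOS, JUN, EGR1 and DUSP1, and DNAJA1 and DNAJB1 were higher. The 8 with a symbol that lay farthest below were ABCA8, ARPP21, CD74, CST3, CYBB, DYNC1I1, GSN and RGS1. ABCA8, a stromal transporter gene, had 0 UMIs in the 146 and 87.6 CPM in the other caput barcodes, at least 18.1-fold higher when 3 UMIs are allowed over the 146. CD74, the invariant chain of antigen presentation, was at 53.1 against 900.4.

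**Figure D2:**
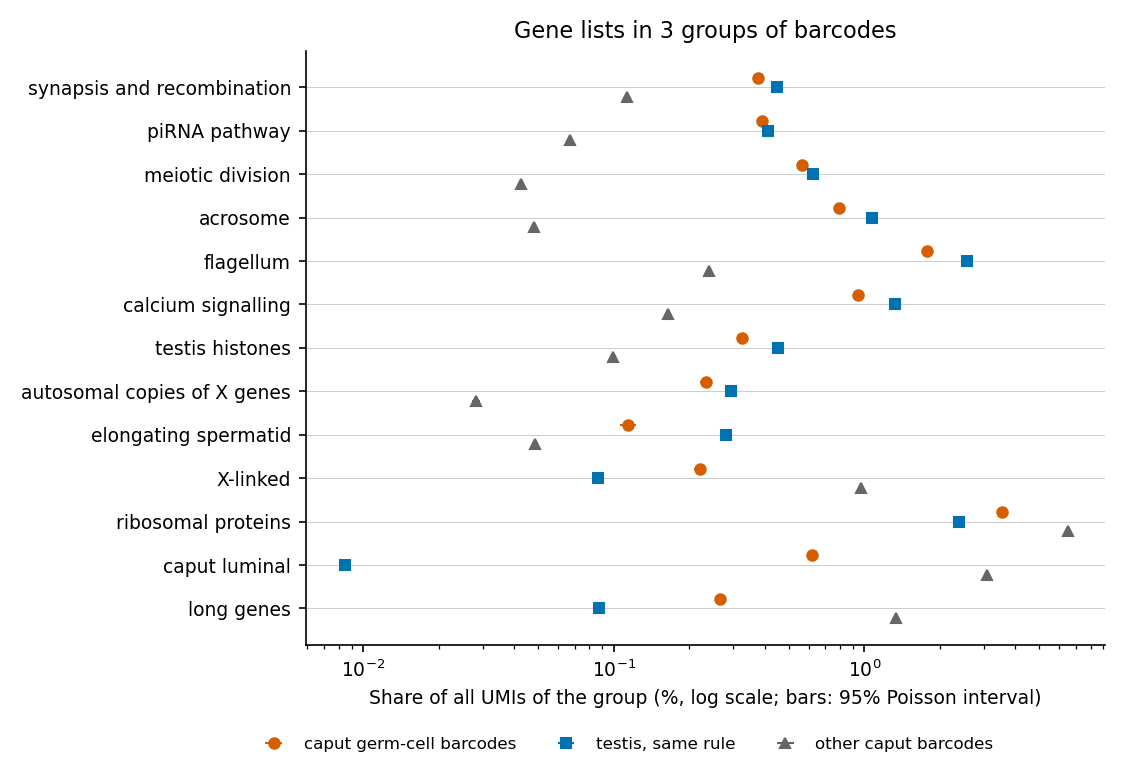
Share of all UMIs (x, percent, log scale) taken by 13 gene lists in the 146 caput germ-cell barcodes (circles), in the testis barcodes of the same rule (squares) and in the other caput barcodes (triangles); bars are 95% Poisson intervals, mostly narrower than the symbols. The meiotic division list took 0.564% in the 146, 0.623% in testis and 0.0428% in the other caput barcodes, while the caput luminal list took 0.619%, 0.0085% and 3.09%.

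Testis somatic cells left little trace in the 146. The Sertoli list (15 genes) took 0.00483% of their UMIs (0.00326 to 0.00689%), against 0.0238% in the other caput barcodes and 0.00167% in the testis counterparts, and SOX9, AMH, GATA4, INHA, DHH, GATM and SHBG were at 0 UMIs. The Leydig list (13 genes) took 0.0148%, against 0.0229% and 0.0111%, and STAR, CYP11A1, CYP17A1, HSD3B2, INSL3 and CYP21A2 were at 0, which allows up to 4.83 CPM each. The few UMIs of those lists came from genes such as FDX1, a mitochondrial electron carrier, at 64.4 CPM, which was at 45.8 in the other caput barcodes and 60.4 in the testis counterparts. Macrophage genes took 0.0159% of the UMIs in the 146, T and NK cell genes 0.00644% and fibroblast genes 0.0476%, each under the level of the other caput barcodes (0.179%, 0.0635% and 0.372%). CD68 and CD163 of the macrophage list were at 0.

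Broadly expressed X-linked genes took a low share of UMIs in the 146, as they did in testis. The list of these (58 genes) took 0.969% of UMIs in the other caput barcodes, 0.220% in the 146 and 0.0869% in the testis counterparts. By UMIs of the chosen genes the share fell from 0.778% at 4 to 9 over 0.227% at 10 to 29 to 0.0983% at 30 or more. Summed, a separate list of 12 X-linked germ-cell genes ran the other way, at 0.0262% in the 146, 0.0158% in the other caput barcodes and 0.0350% in testis. Of its 8 genes tested against the other caput barcodes, 1 was higher (AKAP4, also of the elongating list), 1 lower (TEX11) and 6 neither. AKAP4, at the levels given above, made up most of the summed difference from the other caput barcodes. Against the other caput barcodes 27 of 57 tested genes of the first list were lower and none higher. RPL10 was at 467 CPM against 2422 there and 30.7 in the testis counterparts, and the actin-binding gene TMSB4X at 319 against 1981 and 49.4.

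The autosomal copies ran the other way, and 5 of 6 tested were higher than in the other caput barcodes. PGK1, the X-linked phosphoglycerate kinase, was at 4.83 CPM in the 146, 38.8 in the other caput barcodes and 1.67 in testis, while its copy PGK2 was at 510.2, 11.5 and 656. The pyruvate dehydrogenase subunit gene PDHA1 was at 1.61, 14.3 and 0.217, and PDHA2 at 335, 8.16 and 579. RBMX was at 20.9, 60.3 and 17.1, and RBMXL2 at 159, 2.48 and 76.3. In each of these pairs the X-linked gene was the lower of the pair in the 146 and the higher in the other caput barcodes. PRPS1 and its copy PRPS1L1 ran the same way, at 12.9 and 17.7 CPM in the 146, from 8 and 11 UMIs. In the other caput barcodes they were at 62.7 and 0.400. CSTF2 and its copy CSTF2T did not, at 4.83 and 35.4 in the 146 and 7.84 and 8.40 in the other caput barcodes. RPL10L, the copy of RPL10, was at 0 UMIs in the 146. The X-linked centrin CETN2 did not show the low X level, at 119 CPM in the 146, 98.0 in the other caput barcodes and 234 in testis. CSTF2 stood at 12.8 CPM in testis, above its 7.84 in the other caput barcodes. Copies share sequence, and it is not known how reads common to both were counted, so single values of a pair are uncertain.

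Against the testis counterparts the 146 differed at few genes. Of 18416 genes tested, 127 were higher in the caput barcodes (0.69%) and 116 were lower (0.63%). None of the 36 tested synapsis genes, 21 piRNA genes, 24 division genes and 47 flagellum genes passed in either direction, which is near the share over all genes. The ratio of caput to testis was 0.958 (0.835 to 1.09) for SYCP1, 1.01 (0.917 to 1.102) for TDRD6, 0.886 (0.770 to 1.02) for DDX4 and 0.876 (0.806 to 0.951) for NEK2. Several abundant genes lay below equality without passing 2-fold. SYCE2 was at 961 CPM in caput and 1699 in testis, a ratio of 0.566 (0.521 to 0.613), SPA17 had a ratio of 0.598 (0.577 to 0.621) and CALM3 one of 0.573 (0.549 to 0.598). AURKA and CKS2 lay above it, with ratios of 1.14 (1.04 to 1.26) and 1.66 (1.48 to 1.87). The UMI minimum alone was met at 80.5 CPM for a call higher in caput and at 1.08 for one higher in testis. The interval had to lie beyond 2-fold as well. At 0 UMIs in the 146 the Poisson interval reached 5.94 CPM, so a testis gene near 1.08 could not be called. Such genes count among the 18416 and lower both shares. The number that could be called was not counted, so the share over all genes is a weak measure for the lists. The median log2 ratio over all genes tested was 0.38. Among the 47 deep barcodes alone 36 genes were higher and 174 lower, and with every barcode weighted equally, by ratios without an interval, 233 and 3078. Against the whole testis library 123 of 18959 genes were higher (0.649%) and 160 lower (0.844%), with the late spermatid gene OAZ3 at 6.44 against 68.3 CPM.

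**Figure D3:**
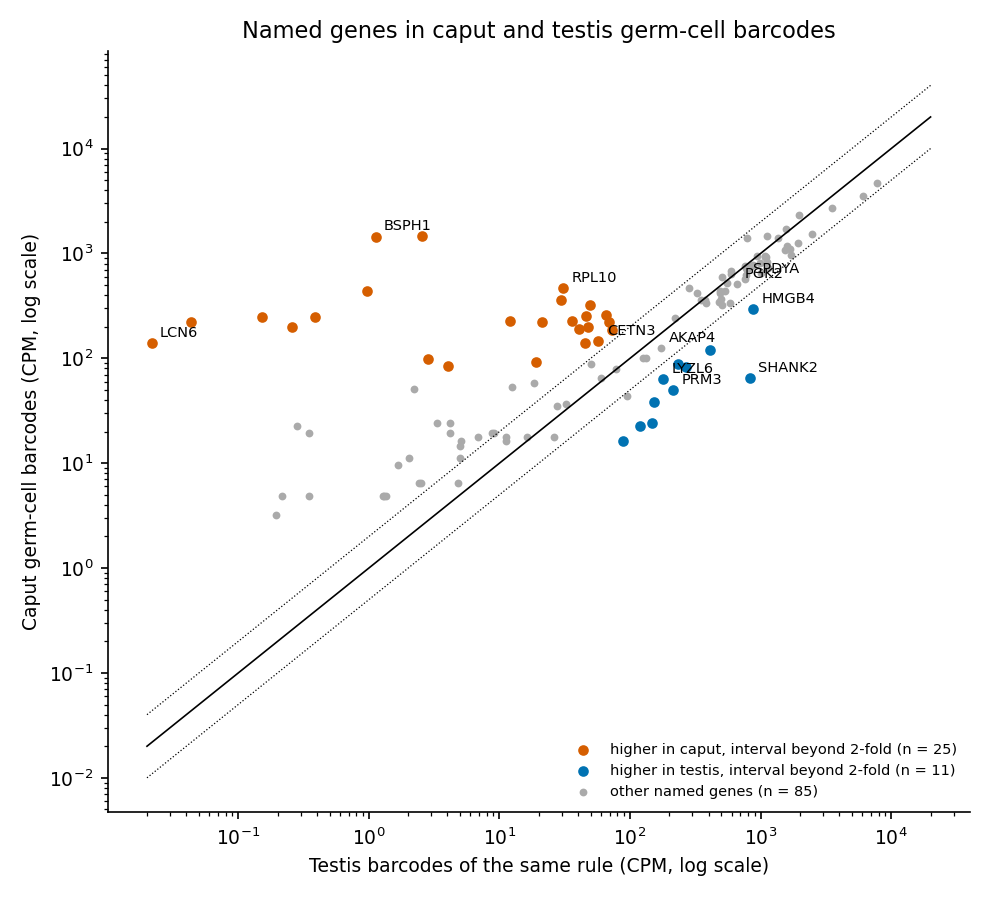
Level of each named gene with at least 1 UMI on both sides in the testis barcodes of the same rule (x) and in the 146 caput germ-cell barcodes (y), both in CPM on log scales; the solid line marks equal levels and the dotted lines 2-fold. Germ-cell genes lie along the line, luminal genes such as BSPH1 (1445 against 1.13) far above it, and SHANK2 (64.4 against 829) far below.

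The genes higher in the caput barcodes were led by products of the caput lumen. The 8 farthest from equality were BSPH1, CLPSL2, DEFB113, DEFB119, LCN6, MUC15, RNASE10 and WFDC11. BSPH1 was at 1445 CPM in the 146, 1.13 in the testis counterparts and 7133 in the other caput barcodes, and 114 of the 146 had at least 1 UMI of it. DEFB119 was at 1476, 2.54 and 5976 in the same order. CLPSL2 had 72 UMIs in the 146 and 0 in testis, at least 1782-fold higher when 3 UMIs are allowed over the testis counterparts. Of the 18 luminal genes tested, 15 were higher in the 146, and so were 13 of 26 long genes, 12 of 72 ribosomal protein genes and 4 of 44 X-linked genes (RPL10, RPL39, TMSB4X and BEX3). Of all 127 higher genes, 119 stood higher still in the other caput barcodes. The share of all genes tested that did so was not counted. Over the 20481 genes tested against the other caput barcodes the median log2 ratio was -1.21. That set reached rarer genes on the side of the other caput barcodes, whose sum was far larger. Over genes with a mean of at least 50 CPM the median-ratio shift was 0.10. The 127 all stood at 80.5 CPM or more in the 146, so -1.21 is no baseline for the 119.

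The remaining 8 stood above both groups, and in testis they were highest among barcodes of the meiotic division range. They were POU5F2, CETN3, HMGB2, PCBP1, C2CD5, C3H9orf40, LOC106830935 and LOC123285961, singled out after their values were seen. POU5F2 was at 91.7 CPM in the 146, 31.3 in the testis counterparts and 1.12 in the other caput barcodes. Its 57 UMIs in the 146 came from 22 barcodes. In testis it was highest in the division range, at 64.7, and lowest in the elongating range, at 4.14. CETN3, a centrin of the centriole, was at 146, 57.2 and 31.3, with 117 in the division range and 7.48 in the elongating range. Its 91 UMIs in the 146 came from 28 barcodes, and the interval of its level there was 118 to 180 CPM. HMGB2, a chromatin protein of meiotic cells, was at 182, 74.6 and 57.3. Each of the 8 had its highest level of the 5 testis ranges in the division range. For LOC106830935 the lead was small, at 99.2 CPM against 98.7 in the synapsis and recombination range. The share of all genes tested with that peak was not counted, so the count is a description.

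Most of the genes lower in the caput barcodes were higher in the elongating than in the division range of testis. Of the 116, 111 had a testis elongating level at least 2-fold above that of the division range (95.7%), against 31.3% of all genes tested. The count of lower genes was 57 with the late share limited to under 0.25%, the part of the rule that sets late spermatid content, and 54 with the same CPM floor on both sides. The elongating list had 6 of 21 genes lower (PRM3, HMGB4, OAZ3, ODF1, LELP1 and SPATA19) and the acrosome list 1 of 27, the sperm lysozyme-like gene LYZL6. HMGB4 was at 293 CPM in the 146 and 874 in the testis counterparts, 2.98-fold (2.58 to 3.47) higher in testis, and came from 38 of the 146. PRM3, a protamine-family gene, was at 49.9 against 214, ODF1 at 82.1 against 269, LYZL6 at 62.8 against 179, and SPATA45 at 38.6 against 152. The adenylate kinase gene AK1 was at 88.5 against 232. In each of these genes the testis division range lay below the mean of the testis counterparts, at 137 CPM for HMGB4 and 30.4 for PRM3.

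A small set of genes was lower in caput without such a pattern. SHANK2, FGD5, SYNDIG1, GCKR and CFAP210 varied by less than 2-fold over the 5 testis ranges and were the 5 remaining lower genes. SHANK2, a scaffold protein gene best known from synapses, was at 766 to 964 CPM over the testis ranges and at 64.4 in the 146, 12.9-fold (9.45 to 18.0) higher in testis. It had 40 UMIs in the 146, spread over 31 barcodes, and its level there was also below that of the other caput barcodes, at 153. FGD5 was at 24.1 against 147, SYNDIG1 at 22.5 against 119 and GCKR at 16.1 against 88.5. CFAP210, a flagellar gene, was at 559 against 1243.

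**Figure D4:**
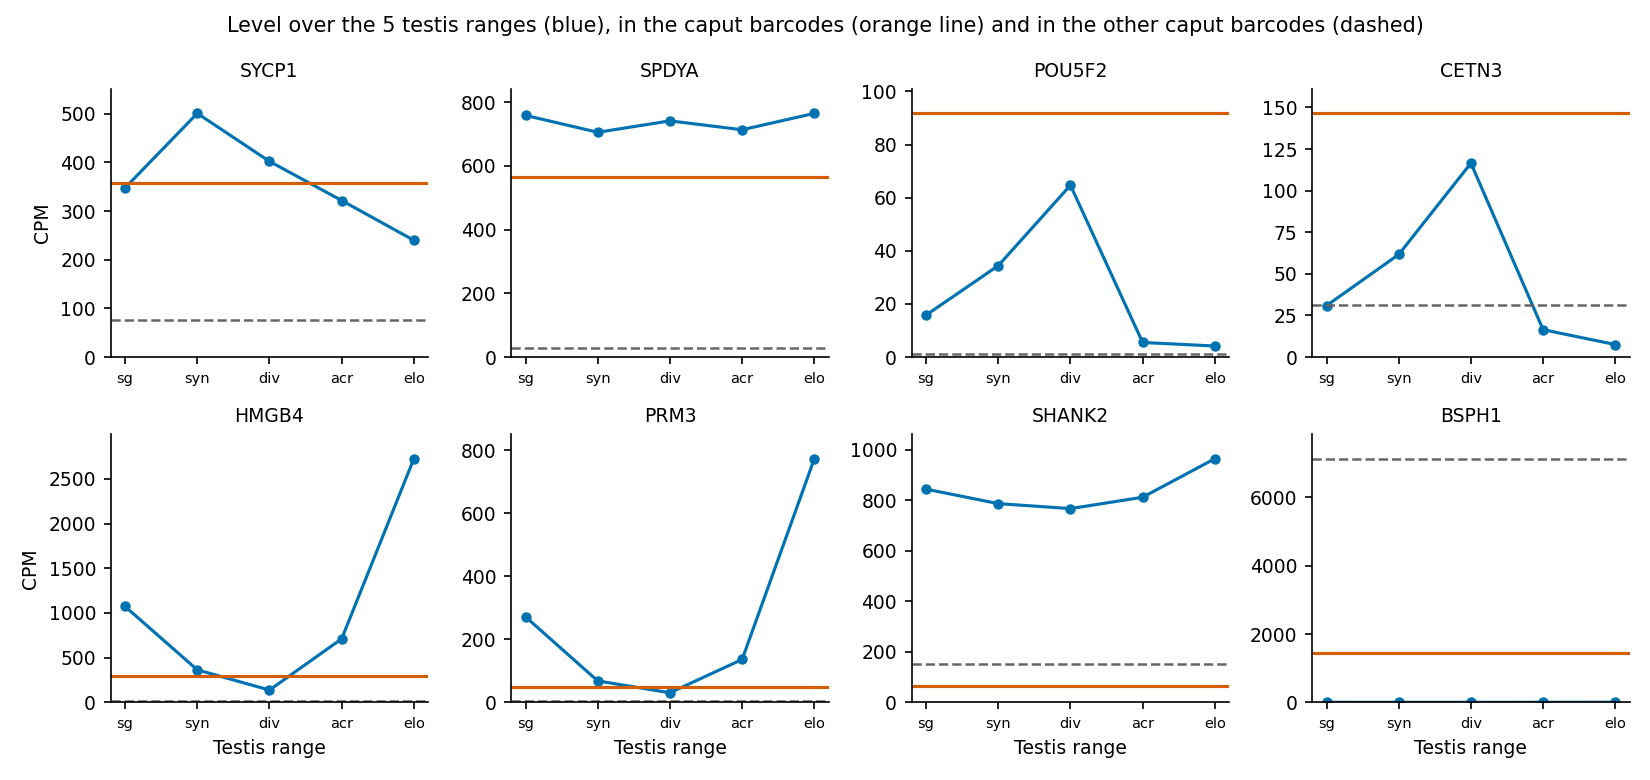
Level of 8 genes in CPM (y, linear, from 0) over the testis ranges (x: sg, spermatogonia list; syn, synapsis and recombination; div, meiotic division; acr, acrosome; elo, elongating), with the level in the 146 caput germ-cell barcodes as an orange line and that in the other caput barcodes as a dashed line. POU5F2 and CETN3 lie above their testis peak in the division range, HMGB4 and PRM3 between the division range and the testis ranges where they stood highest, and SHANK2 below every testis range.

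Within the division range alone, some acrosome and elongating genes were lower in caput than in testis. The 79 barcodes nearest that range were set beside its 2491 testis barcodes, a comparison chosen after seeing the data in which the caput side was picked by whole profile and the testis side by list shares. The choice of either side can itself set a direction for spermatid genes. Of 11683 genes tested, 55 were higher in caput (0.471%) and 75 lower (0.642%), and 34 of the 75 were also lower among all 146. The lower genes held 7 of 27 tested acrosome genes and 4 of 19 elongating genes, and none of 46 flagellum genes. HMGB4 was at 14.6 CPM in the 79 barcodes, from 6 UMIs, against 137 in the testis range. KLHL10, a spermatid ubiquitin-ligase adaptor gene, had 0 UMIs against 47.4 CPM, at least 6.47-fold higher in testis, and the head-shaping gene ACTL7B had 1 against 57.2 CPM. SPACA1, an acrosomal membrane protein gene, was at 56.2 against 221. SHANK2 was again far lower, at 70.8 against 766. BSPH1 and DEFB119 led the higher genes, at 1274 and 1440.5 CPM against 0.554 and 1.87. POU5F2, CETN3 and HMGB2 did not pass here, with ratios of 2.15 (1.62 to 2.81), 1.86 (1.49 to 2.31) and 1.81 (1.48 to 2.19). They were at 139, 217 and 271 CPM in the 79 barcodes, above the 122 CPM that 50 UMIs make there. The 79 barcodes held 57 of the 57 POU5F2 UMIs of the 146, 89 of the 91 of CETN3 and 111 of the 113 of HMGB2. The genes were singled out by those UMIs, so these ratios are no separate check.

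The 146 also differed among themselves in which of the 3 chosen genes led. CLGN had more UMIs than CETN1 and PPP3R2 together in 92 barcodes (368729 UMIs), fewer in 40 (219813 UMIs), and as many in 14. This split uses genes of the rule and is a description. Of 1591 genes tested, 36 were higher in the CLGN-leading barcodes (2.26%) and 1, LOC106823165, was higher in the others (0.0629%). The minimum of 50 UMIs reached rarer genes in the deeper CLGN-leading sum: with the same CPM floor on both sides the counts were 11 and 1, and with barcodes weighted equally, by ratios without an interval, 100 and 64. Spermatid genes made up part of the 36. AKAP4, the main fibrous sheath protein gene, was at 198 CPM against 9.10, HMGB4 at 426 against 91.0, KLHL10 at 176 against 13.6 and TMCO2 at 206 against 22.7. CAMK4, a calmodulin-dependent kinase gene of spermatids, was at 212 against 27.3, and the acrosome genes SPACA1, LYZL4 and ACTL7B passed too. Caput genes were there as well: BSPH1 was at 1755 against 378, DEFB119 at 1627 against 550.5, and B2M, the light chain of class I antigen presentation, at 428 against 50.04.

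Few meiotic genes could be compared between these subsets. None of 6 tested synapsis genes, 10 piRNA genes and 13 division genes passed, which is near the share over all genes. SYCP1 was at 331 CPM in the CLGN-leading barcodes against 396, a ratio of 0.836 (0.630 to 1.11), and NEK2 had a ratio of 0.689 (0.581 to 0.818) and AURKA one of 0.711 (0.583 to 0.868). Restricted to the 109 barcodes with the lowest doublet scores, the count of genes higher in the CLGN-leading barcodes was 13.

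Though few, the 146 held more of most germ-cell lists than their share of all UMIs, but most UMIs of each list lay outside them. They gave 4.71% of all its UMIs and 73.3% of those of CETN1, 74.4% of PPP3R2 and 66.5% of CLGN, which the rule fixes in part. Of the acrosome list they held 44.1% (43.2 to 45.02%), of the division list 39.5% (38.4 to 40.5%), of the autosomal copies of X genes 28.6%, of the flagellum list 26.4%, of the piRNA list 22.2% and of the synapsis list 14.1% (13.6 to 14.6%). Of the elongating list they held 8.48%, of the sperm calcium list 21.7% and of the histone list 13.9%. H1-6 and H2AC1 of the histone list had no UMI in the 146. Its share thus came from other genes and is not read as specific to germ cells. The glycolysis list followed at 7.85%, the X-linked germ-cell list at 6.99% and the spermatogonia list at 1.49%. The other 9288 caput barcodes still gave 14189 UMIs of the synapsis list and 5990 of the acrosome list, or 1528 and 645 per 1000 barcodes.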

How the data were processed

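Testis, caput and corpus epididymidis were each measured as 1 DNBelab C4 droplet library. The deposited matrices hold UMI counts per gene and barcode, not normalized, written with PISA 0.12 per the file headers. Cell Ranger 2.1.1 is named in the submitters' processing notes without its role. Neither aligner nor annotation nor genome build is named there or in the headers. The matrices arrived filtered to cell barcodes, with at least 843 UMIs in caput and 1816 in testis, and no mitochondrial genes were among the features, so that measure of RNA quality was not used. Barcode names are running numbers: caput shares 7441 with testis and 8957 with corpus, which shows nothing about shared cells.

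Of 34267 features, 18266 carried a locus identifier, and 749 of these were given a symbol through the RefSeq gene table (assembly EquAss-T2T_v2), PRM2 among them. Counts were summed per group and divided by the group's total (CPM, per 1000000 UMIs), with exact Poisson 95% intervals. Ratios carry exact conditional binomial intervals, and shares of barcodes Clopper-Pearson intervals. A gene was called when its whole interval lay beyond 2-fold and its higher side held 50 UMIs or more, the 6 rule genes left out. The log2 ratios had 0.5 UMIs added to each side, and the correlations across genes 10 CPM. A count of 0 was bounded by 3 UMIs over the group. Each barcode's testis range was the mixture of 1 testis range profile and the other caput barcodes with the highest likelihood. Doublets were scored against simulated doublets and kept, except in alternatives. The scripts were tested on simulated data. Python 3.11.15, numpy 2.4.6, scipy 1.17.1 and scikit-learn 1.9.0 were used.

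Named genes were the rule genes, the 8 with a symbol farthest from equality in each direction of each comparison, up to 4 per gene list by UMIs in the 146 barcodes and up to 2 more per list and direction against testis. Further names are members of the lists that passed, and genes singled out after their values were seen. The members and the gene lists were chosen with earlier results of these data known. No sequences are shown, since none were among the files used here.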

Additional observations from a re-analysis of the deposited data

Results flagged for a closer look

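Signal of the chosen genes outside the libraries compared was present in the corpus epididymidis, which held 129 UMIs of CETN1, PPP3R2 and CLGN. Of these, 125 were of CLGN, 2 of CETN1 and 2 of PPP3R2, and they lay in 121 barcodes with at most 3 each, at a median depth of 371 UMIs per barcode. CLGN stood at 30.2 CPM in corpus, below the 102.6 of the other caput barcodes, and CETN1 and PPP3R2 were at 0.483 each.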

How the results depend on the processing

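No paired analysis was possible because each tissue has 1 library, and no library could be left out for the same reason. Counts below give genes higher, then lower, in the caput germ-cell barcodes. A threshold of 3 UMIs gave 2433 lower genes against other caput barcodes, 363 and 187 against testis counterparts, 356 higher than whole testis, 76.2% of barcodes with a UMI of the synapsis list and 15.0% of the library's UMIs of that list. A threshold of 6 gave 74 higher than counterparts, 72 higher than whole testis and 13.5% of the list. A late share under 0.25% gave 57 lower than counterparts.

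Requiring 4-fold gave 1021 and 531 against other caput, 52 and 1 against counterparts, 49 and 5 against whole testis, and 3 and 0 in the CLGN split. A minimum of 10 UMIs gave 2683 higher than other caput, 903 than counterparts and 852 than whole testis, and 187 and 13 in the split; no minimum gave 3064, 1951, 1774, and 187 and 14. The planned median-ratio scaling gave 592 and 14050 against other caput, 56 and 0 in the split, and turned H3-3B (log2 -0.13), HSP90B1 (-0.50) and ODF1 (-0.20); the median over both groups, chosen after seeing the data, left 0 in the second direction of the split. Equal weights gave 9325 lower than other caput, 233 and 3078 against counterparts, 228 and 3392 against whole testis, and 100 and 64 in the split. One CPM floor gave 1422 lower than other caput, 54 than counterparts, 72 than whole testis, and 11 in the split.

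Without the highest doublet scores (109 barcodes left), 65 and 60 genes were higher than counterparts and whole testis, the split gave 13 and 0, and the synapsis share was 10.2%. Without barcodes above the median luminal share of the other caput barcodes (102 left) the values were 49 and 47, the split gave 35 and 0, and the share was 12.7%. Without marked doublets the split gave 37 and 0 and the share was 13.4%. The 47 deep barcodes, chosen after seeing the data, gave 36 and 38 higher, a split of 11 and 0, 74.5% nearest the division range, a share of 10.6%, and log2 ratios of -0.079 and -0.11 for DLG2 against counterparts and whole testis. The division-range comparison gave 55 and 75. Without a caput profile 32.9% lay nearest the division range, and thinning to 500 UMIs gave 78.1% for the synapsis list. The other 130 of 196 recomputed values stayed within 1.5-fold or their interval, as did 7062 of 8048 values of single genes, of which 981 moved and 5 turned. The cause was not tested, apart from fewer genes or barcodes passing stricter limits. Depth limits the caput side most, since 1 UMI there is 1.61 CPM against 0.0217 in testis.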

Other observations

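Of 4 further gene groups, oxidative phosphorylation and folding genes stood near their testis share in the 146, and ribosomal and long genes above it. The oxidative phosphorylation list took 1.23% of UMIs in the 146, 1.24% in the testis counterparts and 0.630% in the other caput barcodes, with 1 of 61 genes, COX6A1, higher in the 146 than in testis (140 against 45.3 CPM). The list of folding factors of the endoplasmic reticulum took 0.553%, 0.533% and 0.378%. HSP90B1, its main chaperone gene, was at 1699.7 CPM in the 146 and 1569.5 in the testis counterparts, and CALR3, HSP90B1 and SPCS1 were higher than in the other caput barcodes while PDIA4, PDIA6 and ERP29 were lower. HSP90B1 turned under the median-ratio scaling named above. Ribosomal protein genes took 3.55% of UMIs in the 146, 2.39% in testis and 6.51% in the other caput barcodes.

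The long-gene list, 27 genes with long introns such as LRP1B and CSMD1, took 0.266% of UMIs in the 146, 0.0871% in testis and 1.34% in the other caput barcodes. LRP1B was at 199.6 CPM in the 146, 47.9 in testis and 919 in the other caput barcodes. The median share fell from 0.575% in barcodes with 4 to 9 UMIs of the chosen genes to 0.0839% in those with 30 or more, beside the luminal list named above.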
